A study of Homo sapiens with 4 samples.

Results

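The 10 genes described here are the MAP kinase phosphatases DUSP4, DUSP5 and DUSP6, the Sprouty genes SPRY2 and SPRY4, the Sprouty-related genes SPRED1 and SPRED2, the ETS transcription factors ETV4 and ETV5, and PHLDA1. They were picked by gene symbol out of 24462 genes counted in HepG2 cells, a human hepatocellular carcinoma line, and all 10 were found. They were picked with their fold changes in these libraries already known, so their values are given as a description and no test was made of them. Expression was measured once in each of 4 conditions, giving 4 libraries. Cells had received DMSO, the solvent control, or PD-0332991, a small-molecule inhibitor of the cell cycle kinases CDK4 and CDK6. Other cells had been transfected with a scrambled control siRNA, or with siCDK4 and siCDK6 together, a condition called CDK4/6 KD below. The sources used here give a serum-containing medium for the culture of HepG2 cells, but not the medium during transfection or drug exposure. Neither the dose and duration of PD-0332991 nor how long after transfection cells were harvested is given in the sources used here.

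As background, growth factor receptors act through RAS, RAF and MEK on the kinase ERK, which enters the nucleus and switches on a set of genes. Many of these genes code for brakes on the same pathway. DUSP phosphatases remove phosphate from MAP kinases, with DUSP6 acting on ERK in the cytoplasm, DUSP5 on ERK in the nucleus, and DUSP4 in the nucleus on ERK and other MAP kinases. Sprouty and SPRED proteins restrain signalling between the receptor and RAF, and SPRED proteins recruit the RAS inactivator neurofibromin. ETV4 and ETV5 are transcription factors of the PEA3 group, whose transcripts are widely used as readouts of FGF and ERK signalling. PHLDA1 is a pleckstrin homology-like protein that is itself induced by mitogens.

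The promoters of SPRY2 and SPRY4 are shown because they lay outside exons of coding transcripts and held a match to a searched motif. The motifs searched are tied to growth factor or cyclic AMP signalling. RefSeq entries on GRCh38.p14 were found for 6 of the 10 genes (DUSP6, SPRY2, SPRY4, SPRED1, SPRED2 and PHLDA1), with 9 start sites among them. The 250 bases before each start were searched on both strands for the ETS core CCGGAA, the AP-1 site TGANTCA, the cyclic AMP response element TGACGTCA, its short form TGACG, which lies inside the full form, and the SRF CArG box. Capitals below mark the matches, and each sequence runs 5′ to 3′ on the gene's strand and ends just before the start site.
SPRY2 start 1, chr13:80341127-80341376, minus strand: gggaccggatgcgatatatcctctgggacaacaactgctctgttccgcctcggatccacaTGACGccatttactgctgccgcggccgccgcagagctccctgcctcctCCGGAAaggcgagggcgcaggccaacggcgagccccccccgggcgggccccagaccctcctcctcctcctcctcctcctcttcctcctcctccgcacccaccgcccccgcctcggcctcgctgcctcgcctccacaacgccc
SPRY4, chr5:142324248-142324497, minus strand: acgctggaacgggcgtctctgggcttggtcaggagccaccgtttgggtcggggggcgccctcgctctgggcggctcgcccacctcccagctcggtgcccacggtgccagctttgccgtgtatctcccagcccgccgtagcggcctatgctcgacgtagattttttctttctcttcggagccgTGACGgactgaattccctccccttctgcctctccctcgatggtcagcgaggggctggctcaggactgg

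Counting the base before the start as -1, SPRY2 held the short element at -190 to -186 and the ETS core at -142 to -137, and SPRY4 held the short element at -68 to -64. The PHLDA1 window held the ETS core, read on the other strand, at -89 to -84. The windows of DUSP6, SPRED1 and SPRED2 and the other 2 start sites of SPRY2 held none of the 5 motifs. Among 35116 promoter windows of the same length, 14.5% held CCGGAA, 6.57% TGANTCA, 1.65% TGACGTCA, 21.2% TGACG and 1.16% the SRF CArG box. A match is a run of letters, not a site shown to be bound. The windows of PHLDA1, DUSP6 and SPRED1 lay wholly, and 38 bases of a SPRED2 window, within exons of coding transcripts in GENCODE 29, so they are not plain upstream sequence and are not printed. The SPRY2 window lay outside every annotated exon of its gene, while 170 of the 250 bases of the SPRY4 window lay in an exon of a transcript annotated as not coding for protein.

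Libraries were made with the QuantSeq kit, which primes on the poly(A) tail and so reads the 3′ ends of transcripts. The authors deposited read counts per gene symbol, which summed to between 8983848 and 11176880 reads per library. Levels are given as reads and as CPM, reads scaled to a fixed library total, after TMM scaling of the library sizes. The siRNA targets followed their labels, with CDK4 at 3789 reads after scrambled siRNA and 814 after CDK4/6 KD (ratio 0.203, 95% interval 0.188 to 0.219) and CDK6 at 5734 and 1464 reads (ratio 0.241, 95% interval 0.228 to 0.256). Ratios were taken after adding 0.5 reads, in proportion to library size, where at least 1 of the libraries compared had 10 reads or more, and a gene was called higher or lower at 2-fold. The 95% intervals come from the split of reads (Clopper-Pearson for a ratio of libraries) and cover counting error only. No difference between cultures could be measured, and no p-value was computed. Each of 12 hepatocyte markers had at least 10 reads in each library, with a summed level of 21589 to 28070 CPM.

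As counted, the 3 phosphatases were lowest in CDK4/6 KD. For DUSP4 this rests on 7 reads there, and for DUSP5 it does not hold once the reads of a pseudogene, described below, are added. DUSP6 lies at chr12:89347232-89353271 (GENCODE 29, GRCh38, minus strand). It had 1914 reads (209 CPM) in DMSO, 2015 (221 CPM) in PD-0332991, 4987 (466 CPM) in scrambled siRNA and 1115 (98.5 CPM) in CDK4/6 KD. The scrambled siRNA library was the high one, the CDK4/6 KD library the low one, and DMSO and PD-0332991 lay between them. The ratio of CDK4/6 KD to scrambled siRNA was 0.211 (95% interval 0.198 to 0.226), which placed DUSP6 at rank 147 from the lowest of 13617 genes compared. These are bulk libraries, in which fewer cells expressing a gene and less of its RNA per cell cannot be told apart.

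DUSP5, the nuclear ERK phosphatase (chr10:110497838-110511544, plus strand), was counted at 44 reads in DMSO, 34 in PD-0332991, 143 in scrambled siRNA and 15 in CDK4/6 KD, or 4.82, 3.73, 13.4 and 1.33 CPM. It had the lowest ratio of the 10 genes between CDK4/6 KD and scrambled siRNA, at 0.102 (95% interval 0.0541 to 0.169), and stood at rank 53 of 13617. The order of its libraries was that of DUSP6 except that DMSO and PD-0332991 changed places, and the interval of the ratio between those 2 libraries included 1 for both genes. A processed pseudogene, DUSP5P1, is counted under its own symbol and had 38 reads in DMSO, 44 in PD-0332991, 46 in scrambled siRNA and, as its highest, 102 in CDK4/6 KD, so that its ratio of CDK4/6 KD to scrambled siRNA was 2.08 (95% interval 1.47 to 3.04). Whether reads of DUSP5 were assigned to its pseudogene was not tested. With the reads of both symbols added, the scrambled siRNA library had 189 and the CDK4/6 KD library 117, and the ratio was 0.586 (95% interval 0.461 to 0.741), which no longer passes 2-fold.

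DUSP4, which acts in the nucleus, was the least counted member. It had 9 reads in DMSO, 10 in PD-0332991, 29 in scrambled siRNA and 7 in CDK4/6 KD, which is 0.62 to 2.71 CPM. Scrambled siRNA stood above the other libraries, and the intervals of the ratios between neighbours among the remaining libraries included 1. The ratio of CDK4/6 KD to scrambled siRNA was 0.241, with a wide 95% interval of 0.0844 to 0.532.

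SPRY4 followed the phosphatases as counted. SPRY2 shared their low level in CDK4/6 KD but not their rise from DMSO to scrambled siRNA, and the SPRED genes followed them far less. SPRY4 (chr5:142310427-142326455, minus strand) had 75 reads in DMSO, 77 in PD-0332991, 151 in scrambled siRNA and 39 in CDK4/6 KD, or 8.21, 8.46, 14.1 and 3.45 CPM. Its ratio of CDK4/6 KD to scrambled siRNA was 0.247 (95% interval 0.167 to 0.349). SPRY2 (chr13:80335976-80340951, minus strand) had 58, 39, 70 and 23 reads in the same order, or 6.35, 4.28, 6.54 and 2.03 CPM. For SPRY2 the 2 control libraries were nearly level and CDK4/6 KD was below each of the other 3, with a ratio to scrambled siRNA of 0.315 (95% interval 0.185 to 0.504).

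SPRED1 (chr15:38252326-38357249, plus strand) was the most even of the 10 genes. Its reads numbered 254 in DMSO, 241 in PD-0332991, 330 in scrambled siRNA and 295 in CDK4/6 KD, which is 26.1 to 30.8 CPM, and the interval of the ratio included 1 for each pair of neighbours in the order of its levels. The ratio of CDK4/6 KD to scrambled siRNA was 0.845 (95% interval 0.720 to 0.992). SPRED2 (chr2:65310851-65432637, minus strand) was highest in DMSO, with 206 reads (22.5 CPM) there, 120 (13.2 CPM) in PD-0332991, 164 (15.3 CPM) in scrambled siRNA and 140 (12.4 CPM) in CDK4/6 KD. Its ratio of CDK4/6 KD to scrambled siRNA was 0.808, and the 95% interval of 0.639 to 1.02 included 1.

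ETV4 and ETV5, both of the PEA3 group, were lowest in CDK4/6 KD and near level in the other libraries. ETV4 (chr17:43527844-43579620, minus strand) had 966 reads in DMSO, 831 in PD-0332991, 993 in scrambled siRNA and 419 in CDK4/6 KD, or 106, 91.3, 92.8 and 37.0 CPM. Its ratio of CDK4/6 KD to scrambled siRNA was 0.399 (95% interval 0.355 to 0.448). The 3′ end of ETV4 overlaps DHX8 on the other strand, which had 248, 195, 273 and 294 reads in these libraries. Whether the counting used strand is not stated, so reads of the 2 genes may not be told apart there. ETV5 (chr3:186046308-186110318, minus strand) had 864, 885, 936 and 716 reads, or 94.6, 97.2, 87.5 and 63.3 CPM. Its ratio of 0.723 (95% interval 0.655 to 0.798) lay below 1 and short of 2-fold.

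PHLDA1 (chr12:76025447-76033932, minus strand) had another order. It was counted at 2018 reads (221 CPM) in DMSO, 1146 (126 CPM) in PD-0332991, 2983 (279 CPM) in scrambled siRNA and 3003 (265 CPM) in CDK4/6 KD. PD-0332991 was the low library, and the 2 transfected libraries were level, with a ratio of 0.952 (95% interval 0.904 to 1.00). That small difference changed sign, to 0.03 on the log2 scale, when libraries were scaled by total counts alone.

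**Figure D1:**
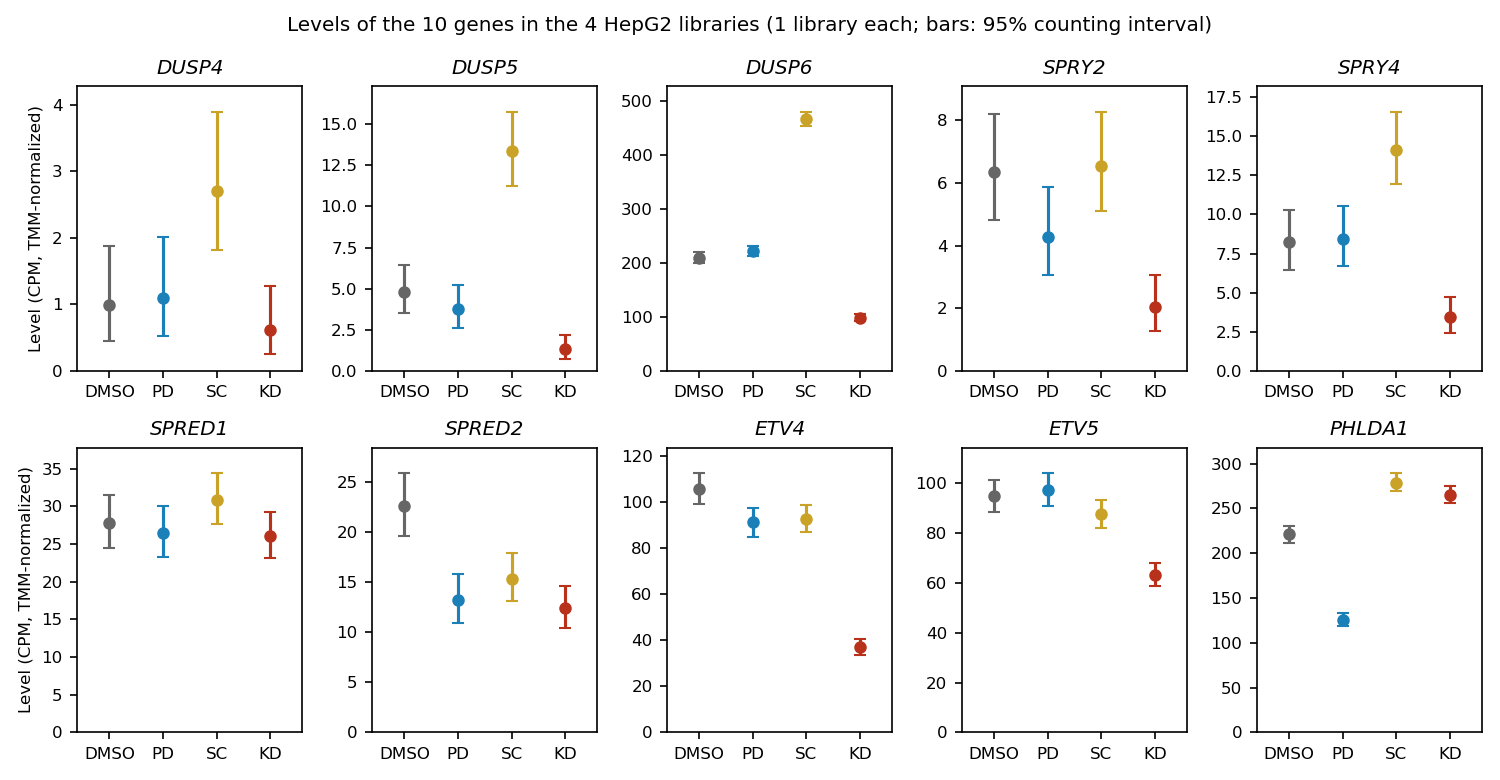
Levels of the 10 genes in CPM after TMM scaling, on axes that start at 0, with 1 point per library (DMSO, PD for PD-0332991, SC for scrambled siRNA, KD for CDK4/6 KD) and bars for the 95% counting interval (exact Poisson). CDK4/6 KD is the lowest library for DUSP4, DUSP5, DUSP6, SPRY2, SPRY4, SPRED1, SPRED2, ETV4 and ETV5, by little for SPRED1 (26.1 against 26.5 CPM in PD-0332991) and SPRED2 (12.4 against 13.2 CPM), and PD-0332991 is the lowest for PHLDA1.

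In the comparison of CDK4/6 KD with scrambled siRNA, 6 of the 10 genes (DUSP4, DUSP5, DUSP6, SPRY2, SPRY4 and ETV4) were at least 2-fold lower and 0 were at least 2-fold higher. DUSP4 passed the minimum of 10 reads only through scrambled siRNA, its highest library, so its call rests on the library where it is high. Over all 13617 genes compared, 7.62% passed 2-fold downward and 9.19% upward. Since this contrast was known when the genes were picked, nothing is read from the difference between those shares. The interval lay below 1 for 8 genes, all but SPRED2 and PHLDA1. Their median log2 fold change was -1.49, beside -0.0036 over all genes compared. With the reads of DUSP5P1 added to DUSP5, 5 genes remained past 2-fold and the median was -1.05.

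The transfection control itself differed from DMSO for the phosphatases. In scrambled siRNA compared with DMSO, DUSP5 was 2.76-fold higher (95% interval 1.97 to 3.98), DUSP4 2.67-fold (1.27 to 6.61) and DUSP6 2.22-fold (2.11 to 2.35). These 3 were the members past 2-fold higher, and 0 were past 2-fold lower, while 5.3% of 13303 genes passed 2-fold upward and 6.64% downward. SPRY4 was 1.71-fold higher (1.30 to 2.30) and PHLDA1 1.26-fold (1.19 to 1.34). The ratio of SPRY2 was 1.03 (0.717 to 1.49), and SPRED2 and ETV4 had intervals below 1, at ratios of 0.681 (0.550 to 0.839) and 0.878 (0.803 to 0.960). With the reads of DUSP5P1 added, DUSP5 was 1.96-fold higher (1.51 to 2.58) and 2 members passed 2-fold.

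**Figure D2:**
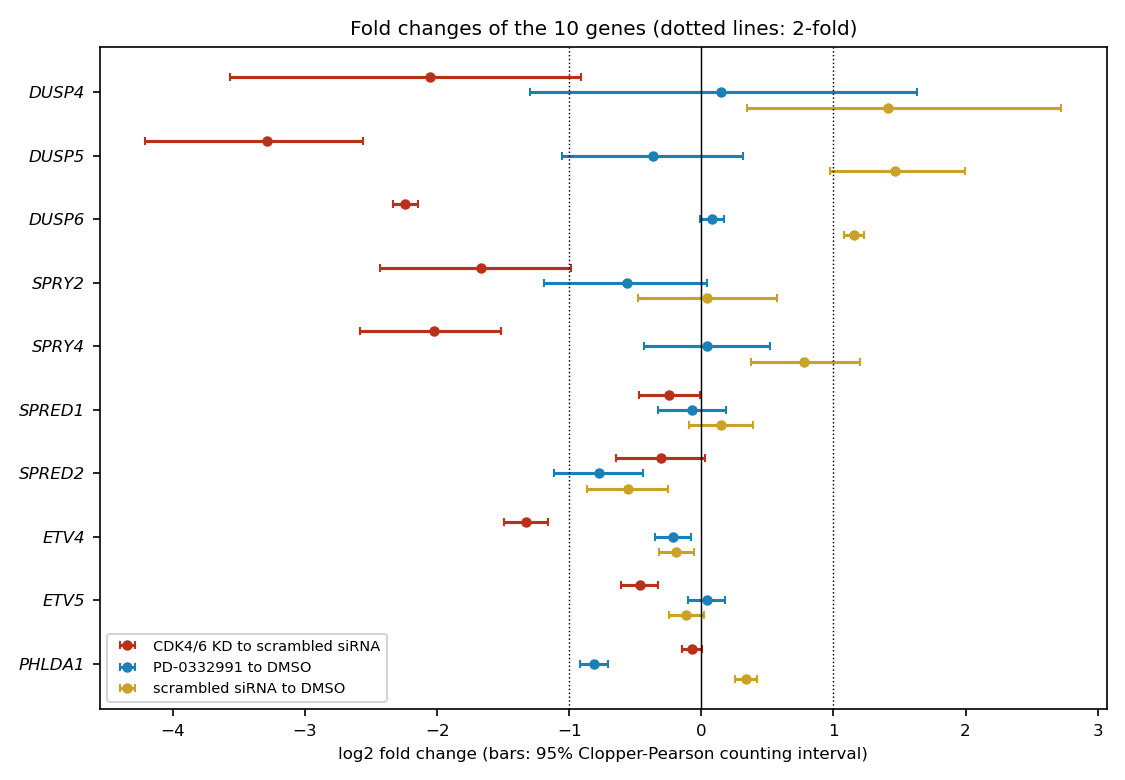
The log2 fold change of each gene in CDK4/6 KD to scrambled siRNA, PD-0332991 to DMSO and scrambled siRNA to DMSO, with 95% Clopper-Pearson counting intervals as bars, 1 library per condition, and dotted lines at 2-fold. The scrambled siRNA library is the denominator of the first comparison and the numerator of the third, and the phosphatases lie left of the lower line in the first and right of the upper line in the third.

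Because scrambled siRNA is shared by both comparisons, the ratios were also taken to DMSO, the control of the other arm. In CDK4/6 KD compared with DMSO, 5 of the 9 members with enough reads were at least 2-fold lower, beside 8.16% of 13512 genes. DUSP5 was at 0.282 (0.142 to 0.504), SPRY2 at 0.325 (0.188 to 0.527), ETV4 at 0.350 (0.311 to 0.393), SPRY4 at 0.423 (0.277 to 0.626) and DUSP6 at 0.470 (0.436 to 0.507). The ratios to DMSO were thus nearer to 1 than those to scrambled siRNA for DUSP5, DUSP6 and SPRY4, alike for SPRY2, and lower for ETV4. With the reads of DUSP5P1 added, DUSP5 turned direction, to 1.15 with an interval that included 1 (0.861 to 1.55), and 4 of the 9 genes remained past 2-fold. DUSP4, with 7 and 9 reads, had too few reads for this comparison. SPRED2 and ETV5 had intervals below 1, at 0.550 (0.439 to 0.683) and 0.669 (0.605 to 0.739), and PHLDA1 was higher than in DMSO, at 1.20 (1.13 to 1.27).

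After PD-0332991, none of the 10 genes differed from DMSO by 2-fold in either direction, while 7.06% of 13443 genes passed 2-fold downward and 7.49% upward. This contrast, too, was known when the genes were picked. PHLDA1 had the lowest ratio, at 0.570 (0.530 to 0.613), followed by SPRED2 at 0.586 (0.463 to 0.736). ETV4 was at 0.863 (0.786 to 0.948), and the intervals of the other 7 genes included 1, as did those of 5818 of the 13443 genes compared. Among the phosphatases, DUSP6 was at 1.06 (0.992 to 1.13), DUSP5 at 0.778 (0.481 to 1.24) and DUSP4 at 1.11 (0.407 to 3.10). The counts of DUSP4 leave a ratio as low as 0.407 or as high as 3.10 possible, whereas the interval of DUSP6 leaves at most a 1.13-fold difference by counting error. SPRY4 was at 1.03 (0.740 to 1.44), SPRY2 at 0.678 (0.438 to 1.03), SPRED1 at 0.952 (0.795 to 1.14) and ETV5 at 1.03 (0.935 to 1.13). The median log2 fold change was -0.14, beside 0.018 over all genes compared.

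The PD-0332991 library also had reads of more epidermal genes than the other libraries. Of 30 keratinocyte markers, 5 had at least 10 reads in DMSO, 19 in PD-0332991, and 12 in each transfected library. Of the list, 7 were at 0 in DMSO, 1 in PD-0332991, 6 in scrambled siRNA and 3 in CDK4/6 KD. Their summed level was 214, 270, 382 and 222 CPM, highest in scrambled siRNA and mostly from SFN and KRT10. SFN was lower in PD-0332991, with 563 reads against 1221 in DMSO, while KRT10 had 701 against 606. The other 28 summed to 14.0, 131, 28.6 and 32.9 CPM, highest in PD-0332991. TP63, a defining factor of these cells, had at most 1 read in any library. A role of these genes or their cells in the values of PHLDA1, SPRED2 and ETV4 was not tested.

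Set against scrambled siRNA in place of DMSO, PD-0332991 gave 4 of 10 genes at least 2-fold lower, beside 8.17% of 13552 genes. These were DUSP5 at 0.282, DUSP4 at 0.416, PHLDA1 at 0.452 (0.421 to 0.483) and DUSP6 at 0.475. The sign for DUSP4, DUSP6 and SPRY4 thus depended on which control library was used, and PHLDA1 was below each of the controls. ETV4, at 0.983, and ETV5, at 1.11 (1.01 to 1.22), stayed near level.

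**Figure D3:**
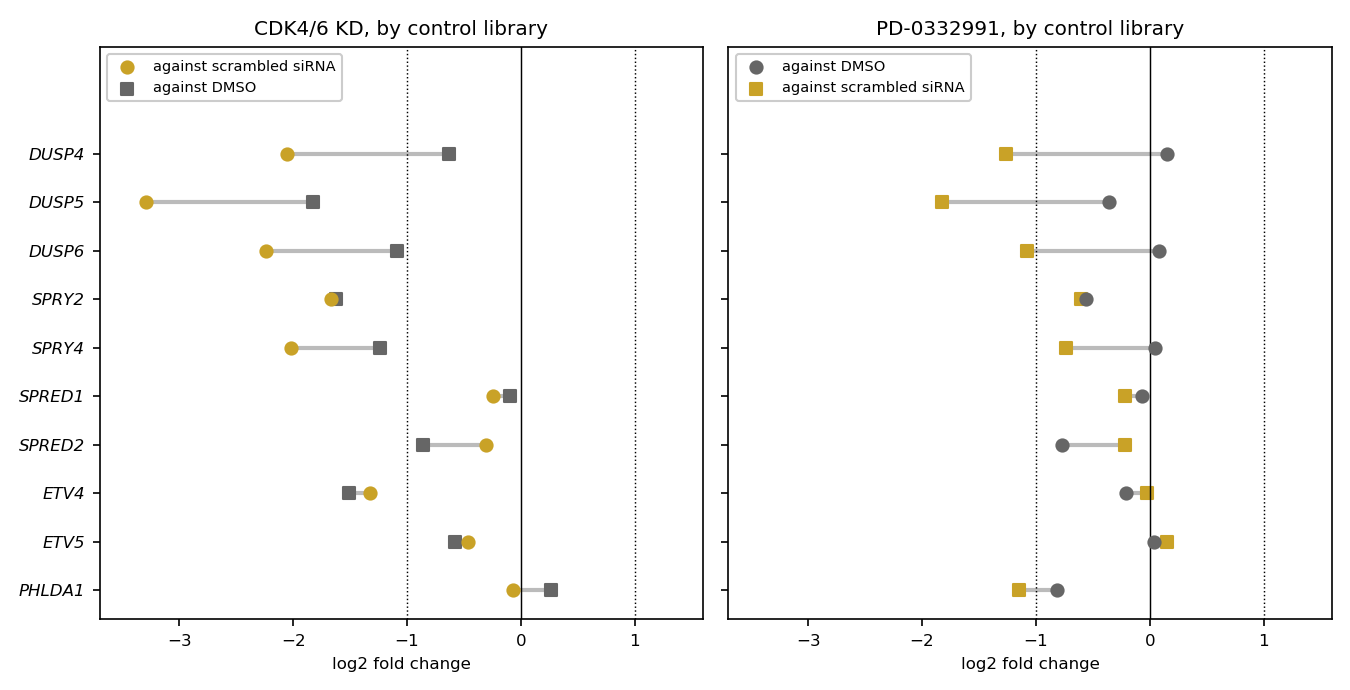
The log2 fold change of each gene in CDK4/6 KD (left) and in PD-0332991 (right), against the control library of its own arm (circles) and of the other arm (squares), with dotted lines at 2-fold, no error bars and 1 library per condition. The gap between the marks of a gene is the difference between the 2 controls, which is 1.46 on the log2 scale for DUSP5 and 0.04 for SPRY2, and DUSP4 in CDK4/6 KD against DMSO rests on 7 and 9 reads.

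Ratios of reads between related genes within a library do not depend on how libraries are scaled. They compare reads at 3′ ends, so a change of such a ratio between libraries is what is described. ETV4 had 1.12 reads per read of ETV5 in DMSO, 0.939 in PD-0332991, 1.06 in scrambled siRNA and 0.585 in CDK4/6 KD. The ratio in CDK4/6 KD was 0.552 of that in scrambled siRNA (0.475 to 0.641), so the pair was not lowered equally. DUSP6 had 43.5, 59.3, 34.9 and 74.3 reads per read of DUSP5, and between scrambled siRNA and CDK4/6 KD this ratio increased 2.13-fold (1.25 to 3.64). This direction depended on the pseudogene: with the reads of DUSP5P1 added to DUSP5 the ratio was 26.4 in scrambled siRNA and 9.53 in CDK4/6 KD, a change to 0.361 (0.284 to 0.459).

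The SPRY4 to SPRY2 ratio was 1.29, 1.97, 2.16 and 1.70, and its change between CDK4/6 KD and scrambled siRNA, 0.786, had an interval of 0.437 to 1.42. SPRED1 had 1.23 reads per read of SPRED2 in DMSO and 2.01 to 2.11 in the other 3 libraries, a 1.63-fold change after PD-0332991 (1.22 to 2.17). DUSP6 and PHLDA1, the 2 most counted members, had a ratio of 0.948 in DMSO, 1.76 in PD-0332991, 1.67 in scrambled siRNA and 0.371 in CDK4/6 KD. The ratio was 1.85-fold higher after PD-0332991 than in DMSO (1.68 to 2.04), and in CDK4/6 KD it was 0.222 of that in scrambled siRNA (0.205 to 0.241).

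**Figure D4:**
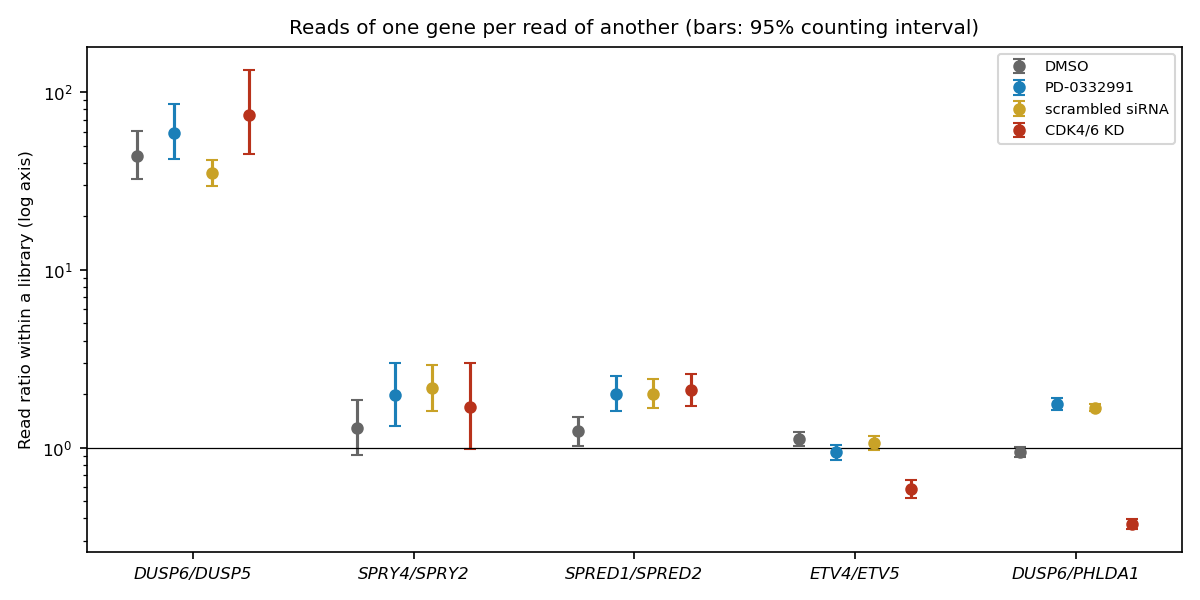
Reads of a first gene per read of a second in each of the 4 libraries, on a log axis, with 95% counting intervals as bars and a line at 1. ETV4 per ETV5 and DUSP6 per PHLDA1 are lowest in CDK4/6 KD, at 0.585 and 0.371, and DUSP6 per PHLDA1 is highest in PD-0332991, at 1.76.

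The other genes of the pathway were described from fixed lists, chosen with earlier results of these data known. Among 7 other MAP kinase phosphatases, 6 had enough reads, and of these 0 were at least 2-fold lower and 2 were higher, beside 7.62% and 9.19% of all genes. DUSP8, which acts mainly on JNK and p38, went from 113 to 419 reads (ratio 3.49, 2.84 to 4.35), and DUSP10 from 7 to 17 reads (2.21, 0.905 to 6.55). The cytoplasmic ERK phosphatase DUSP7 had 75 and 107 reads (1.35, 0.995 to 1.84). The intervals of DUSP8 and DUSP9 lay above 1, as for 4082 of all 13617 genes, and those of the other 4 phosphatases included 1. The median log2 fold change was -2.24 for the 3 member phosphatases and 0.47 for these 6, beside -0.0036 over all genes compared. In scrambled siRNA compared with DMSO, 3 of the other phosphatases were at least 2-fold lower, beside 6.64% of all genes. They were DUSP7 at 0.397, DUSP9 at 0.326, and DUSP10 at 0.478 on 13 and 7 reads, while the 3 members were higher as counted. In each of these comparisons, DUSP10 passed the minimum of 10 reads only through its higher library.

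Of the other Sprouty and SPRED genes, SPRY1 alone of 3 had enough reads, 377 after scrambled siRNA and 234 after CDK4/6 KD (0.587, 0.496 to 0.693). Among the 5 other ETS factors with enough reads, ETS1 (66 and 29 reads, 0.420) and ELK1 (194 and 97 reads, 0.474), an ERK substrate that binds with SRF, were at least 2-fold lower. Of all genes, 7.62% passed 2-fold downward. PHLDA2, a relative of PHLDA1, was lower, with 830 reads after scrambled siRNA and 120 after CDK4/6 KD (0.137, 0.112 to 0.166), where PHLDA1 was level. ERRFI1, an inhibitor of the EGF receptor, was alone past 2-fold among 4 receptor-level inhibitors with enough reads, with 502 and 232 reads (0.437, 0.372 to 0.511).

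Genes of the RAS-ERK cascade itself lay on both sides. Of 23, 1 passed 2-fold downward from scrambled siRNA to CDK4/6 KD and 2 passed upward, with a median log2 fold change of 0.10, beside 7.62% and 9.19% of all genes. The interval lay below 1 for 4 of them and above 1 for 9, beside 4343 and 4082 of all 13617 genes. The lower gene was NRAS, a RAS GTPase (597 and 224 reads, 0.355). The higher genes were MAPK3, which codes for ERK1 (197 and 494 reads, 2.37, 2.01 to 2.81), and the ribosomal S6 kinase gene RPS6KA2, on 4 and 12 reads (2.64, 0.860 to 12.1). Among 12 other genes known to be induced by ERK, 11 had enough reads. Of these, 5 were at least 2-fold lower, beside 7.62% of all genes, with a median of -0.72. EGR1, an early growth response factor, went from 1576 to 46 reads (0.028), IER3, an early response gene, from 18350 to 2736 (0.141), HBEGF, an EGF receptor ligand, from 83 to 13 (0.153), FOSL1, an AP-1 subunit, from 137 to 62 (0.430) and FOS from 11 to 2 reads (0.207, 0.0185 to 0.788).

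From DMSO to scrambled siRNA, 4 of these genes passed 2-fold upward, beside 5.3% of all genes. They were EGR1 at 7.81-fold (6.68 to 9.21), HBEGF at 3.04-fold, FOS at 2.85-fold on 11 and 3 reads (0.827 to 17.5), and IER3 at 2.70-fold. These ratios share the scrambled siRNA library with those of CDK4/6 KD. Here, too, FOS passed the minimum of 10 reads only through scrambled siRNA. Against DMSO, 4 of the 10 with enough reads were at least 2-fold lower in CDK4/6 KD, beside 8.16% of all genes.

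After PD-0332991, the lists held few genes past 2-fold from DMSO, where 7.06% of all genes passed downward and 7.49% upward. DUSP7 was lower (162 and 68 reads, 0.423, 0.313 to 0.562), as were ETS1 (42 and 18 reads, 0.437), FOSL1 (115 and 42 reads, 0.369) and EPHA2, an ephrin receptor (404 and 151 reads, 0.376). RPS6KA2 was higher, on 2 and 12 reads (5.02, 1.34 to 55.4), and passed the minimum of 10 reads only through PD-0332991. EGR1 had 172 and 193 reads (1.13, 0.912 to 1.39), and the median of the other ERK-induced genes was -0.49 over the 10 with enough reads.

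**Figure D5:**
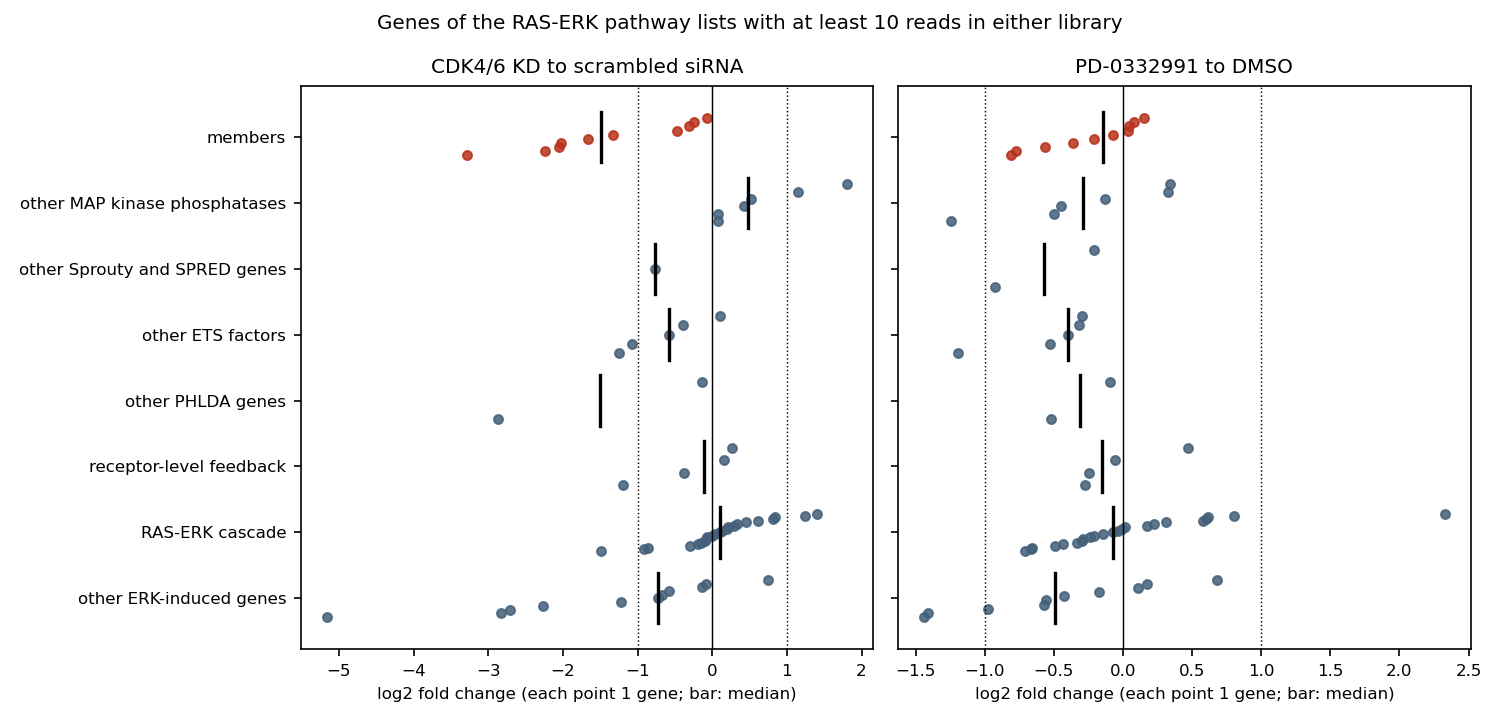
The log2 fold change of each gene with enough reads in the 10 members (top) and 7 other lists of the RAS-ERK pathway, for CDK4/6 KD to scrambled siRNA (left) and PD-0332991 to DMSO (right), on axes of different range with bars at each list's median and dotted lines at 2-fold. On the left the medians are -1.49 for the members, 0.47 for the other MAP kinase phosphatases and -0.72 for the other ERK-induced genes.

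The profile of the 10 genes over the 4 libraries was summarised as the median of their centred log2 CPM, using the 9 members with at least 50 reads in some library. It was 0.16 in DMSO, -0.03 in PD-0332991, 0.39 in scrambled siRNA and -1.03 in CDK4/6 KD. SPRY2 (distance 0.422) and ETV4 (0.440) lay nearest to it and PHLDA1 (1.54) and DUSP5 (1.41) farthest, where the distance is Euclidean on the log2 scale. Of 11369 genes compared, HIRA, BFAR, SLC38A5, PDK1 and RAB42 were the non-members nearest to this profile, at distances of 0.271 to 0.283. In all, 109 non-members lay nearer than SPRY2 did.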

How the data were processed

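HepG2 RNA was sequenced in 4 QuantSeq libraries, 1 per condition, with groups taken from the sample titles. The deposited values are raw counts of reads for each gene symbol, as the authors made them, and the submitters' processing notes name Bowtie2, edgeR and hg19. The counter, the annotation and the use of strand are not given in the sources used here. Of 25737 entries per table, 286 symbols were listed more than once and were summed, none of them a member. TMM factors (edgeR 4.0.16, R 4.3.3) were 0.957 to 1.03. A pseudocount of 0.5 reads was added before ratios were taken, with a minimum of 10 reads in either library and a 2-fold threshold. A library's floor was 3 reads, and no member was at or under it. Counting intervals are 95% Clopper-Pearson for ratios of libraries, exact Poisson for levels and log odds (Woolf) for changes of read ratios (scipy 1.17.1). edgeR's replicated tests could not be run with 1 library per condition. The procedure was run on simulated counts that held counting error only, so the run cannot speak to differences between cultures.

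The members and gene lists were chosen with earlier results of these data known. Besides the members, CDK4 and CDK6, the genes named were up to 4 per list past 2-fold after CDK4/6 KD or PD-0332991, ranked by the interval end nearest to 1, or the most counted gene where none passed, and the 5 non-members nearest in profile. DUSP7 after CDK4/6 KD, DUSP9, DUSP5P1, DHX8, FOS, FOSL1 and TP63 were named after their values were seen. Alternatives were DESeq2 size factors (DESeq2 1.42.0), total counts, a pseudocount of 5, no filter, a minimum of 50 reads, the largest entry alone where a symbol repeats, a 1.5-fold threshold, calls with the whole interval past 2-fold, and the other control library. Quantile normalization and adding DUSP5P1 to DUSP5 were chosen after seeing the data. Gene positions are from GENCODE 29.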

Additional observations from a re-analysis of the deposited data

How the results depend on the processing

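For CDK4/6 KD to scrambled siRNA, PD-0332991 to DMSO and scrambled siRNA to DMSO, 228 single-member values were recomputed under the alternatives. Of these, 212 stayed within their counting interval, 16 moved and 0 reversed a call. A reversal was recorded only for a member past 2-fold at first, and none was after PD-0332991. There, DUSP4 went from 0.15 to -1.26 on the log2 scale with the other control, yet stayed within its wide interval. Some agreement was fixed in advance, since dropping the filter (30 same) or raising it to 50 reads (26 same) cannot change a ratio. Using the largest entry alone (30 same) changes only library sizes, since no member symbol repeats. The tally leaves out CDK4/6 KD against DMSO with DUSP5P1 added, where DUSP5 turned from a lower call to 1.15. The control library mattered most. With the other control, the median log2 fold change of the members was -1.09 for CDK4/6 KD and -0.67 for PD-0332991, and 4 members were at least 2-fold lower after PD-0332991. A threshold of 1.5-fold gave 2 lower after PD-0332991 (SPRED2 and PHLDA1), and requiring the whole interval past 2-fold left 4 of 6 members lower after CDK4/6 KD (not DUSP4 or SPRY2) and 1 member, DUSP6, higher after scrambled siRNA relative to DMSO. The share of all genes under these rules was not computed, so nothing is read from these counts. Adding DUSP5P1 to DUSP5 brought the median for CDK4/6 KD to -1.05. Scaling by total counts moved the median of all genes to 0.10 for CDK4/6 KD and turned the sign of SPRY2 in scrambled siRNA to DMSO (to -0.02), and quantile normalization that of DUSP4 (to -0.20) and SPRED1 (to 0.01) after PD-0332991, all near 0 before. Depth limits DUSP4, with 7 to 29 reads. No library could be left out with 1 per condition, so agreement between cultures is unknown.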
